A study of Mus musculus with 109 samples.

Results

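The interleukin 1 (IL1) family members described here are 9 genes of the 37315 in the count table. These 9 were chosen by name for their place in the pathway, with earlier results of these data known. They comprise the agonist ligands Il1a, Il1b and Il33, the receptor antagonist Il1rn, the signalling receptor Il1r1 and its partner Il1rap, the decoy receptor Il1r2, the adaptor Myd88 and the inhibitory kinase family member Irak3. All 9 were found in the table by their symbols.

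RNA was sequenced from 109 whole mouse retinas of 64 mice after injection into the vitreous of PBS, TNF, IL1A or IL1A and TNF together (IL1A+TNF). In batch 1, wild-type (WT) C57BL/6J retinas were collected on day 2 after PBS (n = 31), TNF (n = 8), IL1A (n = 9) or IL1A+TNF (n = 10), on day 14 after PBS (n = 7) or TNF (n = 6), and on day 35 after PBS (n = 6) or TNF (n = 9). In batch 2, all of day 2, there were WT retinas after PBS (n = 5) or IL1A+TNF (n = 6), and Sarm1-/- retinas after PBS (n = 6) or IL1A+TNF (n = 6). Mice were 2 to 6 months old and of both sexes, with 54 retinas from females and 55 from males. In 44 mice 1 eye received a cytokine and the other PBS, so a PBS retina is in most cases the fellow eye of a treated one, and no uninjected eye was analysed here. The Sarm1-/- line lacks the gene's function in the whole mouse and not in retinal cells alone.

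IL1A and IL1B bind IL1R1, which then recruits IL1RAP and, inside the cell, MYD88. IL1RN occupies the same receptor without signalling, IL1R2 binds ligand but lacks the intracellular signalling part, and IRAK3 (IRAK-M) restrains the kinases downstream of MYD88. IL33 is a nuclear alarmin that signals through its own receptor together with IL1RAP. In the retina Il33 is known from Müller glia, whereas Il1b, Il1rn and Il1r2 are known from myeloid cells. The injected cytokines were proteins, so Il1a counts measure the transcript made by the mouse's own cells.

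The promoters of the 3 members that bind IL1R1, both ligands and the antagonist, are given because their RNA followed such different courses after injection. The sequences are from RefSeq (GRCm38.p6), 5′ to 3′ on the strand of the gene and ending at the transcription start. Capitals mark letters of AP-1 (TGANTCA) or C/EBP (TTNNGNAAT), the motifs searched, on both strands, along with the NF-kB consensus.
Il1a, chr2:129309973-129310222, minus strand: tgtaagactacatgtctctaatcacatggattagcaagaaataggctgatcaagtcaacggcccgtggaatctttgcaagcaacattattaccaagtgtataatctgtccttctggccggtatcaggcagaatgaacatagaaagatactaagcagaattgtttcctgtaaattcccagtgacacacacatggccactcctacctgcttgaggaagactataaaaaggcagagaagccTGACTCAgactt
Il1b, chr2:129371140-129371389, minus strand: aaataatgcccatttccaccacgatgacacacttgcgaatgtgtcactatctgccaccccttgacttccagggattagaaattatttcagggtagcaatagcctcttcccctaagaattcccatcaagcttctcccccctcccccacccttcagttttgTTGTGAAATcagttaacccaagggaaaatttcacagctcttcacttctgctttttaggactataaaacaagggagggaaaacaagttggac
Il1rn, chr2:24336610-24336852, plus strand: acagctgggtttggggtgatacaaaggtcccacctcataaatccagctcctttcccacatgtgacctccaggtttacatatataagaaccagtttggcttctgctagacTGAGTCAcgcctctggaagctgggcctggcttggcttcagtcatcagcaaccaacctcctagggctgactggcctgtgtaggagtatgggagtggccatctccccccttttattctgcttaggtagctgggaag

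Il1a held an AP-1 match just before its start, Il1b a C/EBP match and Il1rn an AP-1 match. All 9 members matched a RefSeq promoter, with 14 starts among them. In the 250 bases before a start, AP-1 letters were present for 2 members (Il1a and Il1rn), against 6.75% of 32817 promoters. C/EBP letters were present for 3 members (Il1b, Il1r1 and another start of Il1rn), against 10.2% of promoters. The NF-kB consensus was present for 1 member (Il1r1, where it overlapped the C/EBP match), against 7.25%. A member was counted if any of its starts matched, whereas the percentages are shares of single promoters, so the 2 measures are unlike. The region of the Il1rn start with the C/EBP match held 83 exonic bases. These matches are descriptions of letters and not of binding.

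Total counts ran from 30014757 to 79064488 per retina, with a median of 39374202. No 2 retinas of a group differed by as little as sampling noise over 716 pairs. Sarm1 was 43.4 ± 5.83 CPM (reads of a gene scaled to the library total; SD, n = 6) in Sarm1-/- PBS retinas and at least 77.5 CPM in every WT retina, so every library matched its genotype label, although Sarm1 RNA was not absent from the deficient line (log2 fold change -1.41, SE 0.08, FDR 2.298e-24). Defining markers of the retina were present in all groups, with a median summed level of 37520 CPM for rods and 415 CPM for retinal ganglion cells (RGCs) in WT PBS retinas of day 2. Within Sarm1-/- IL1A+TNF, 3 retinas stood apart: their summed RGC markers were 212, 80.4 and 66.1 CPM (replicates 3, 4 and 5), against 364 to 407 CPM in the other 3. They were chosen as lying below every WT IL1A+TNF retina, but the lowest of those, male replicate 3 of batch 2, was near at 229 CPM. Sarm1-/- replicates 4 and 5 lay furthest out. Their summed endothelial markers were 224.8 and 154.3 CPM, where the rest of the group ran from 349 to 437 CPM. Replicates 3, 4 and 5 are also the female retinas of that group, so sex and standing apart cannot be told apart, and the Sarm1-/- results below are followed by values without them.

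In PBS retinas of day 2 the members differed widely in level. Per kb of exon, as CPM per kb, Il33 was highest at 30.2, followed by Myd88 at 5.09, Il1r1 at 3.23, Il1rap at 1.93 and Il1b at 1.5, the last with a spread that reached its neighbours. The 4 lowest were Il1rn at 0.734, Irak3 at 0.721, Il1r2 at 0.633 and Il1a at 0.516 CPM per kb, which lay close together relative to the spread of Il1rn and Il1r2 between retinas. Thus the alarmin and the receptor components were expressed in control tissue, and the myeloid-associated members were scarce. Il1b, Il1rn and Il1r2 had an SD above or near their mean in the same PBS retinas, so single control eyes reached levels seen after cytokine.

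The first question was which IL1 family genes each cytokine changed in WT retinas on day 2. A difference was called at an FDR under 0.05 after adjustment over all genes tested, with log2 fold changes from limma voom. After TNF no member was called of 9 tested by limma, edgeR or DESeq2, and 0 had an unadjusted p under 0.05, against a background of 0.655% of genes called. After IL1A, 5 of 9 rose (Il1b, Il1r1, Il1r2, Myd88 and Irak3) against 21.4% of genes called. After IL1A+TNF all 9 rose, against 50.4% of genes called in either direction. The median log2 fold change of the members was 0.07 after TNF, 0.54 after IL1A and 1.15 after IL1A+TNF, where that of all genes tested was -0.002, -0.01 and -0.023. In whole tissue, more cells of a type and more RNA per cell cannot be told apart. These 3 comparisons share their PBS retinas.

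**Figure D1:**
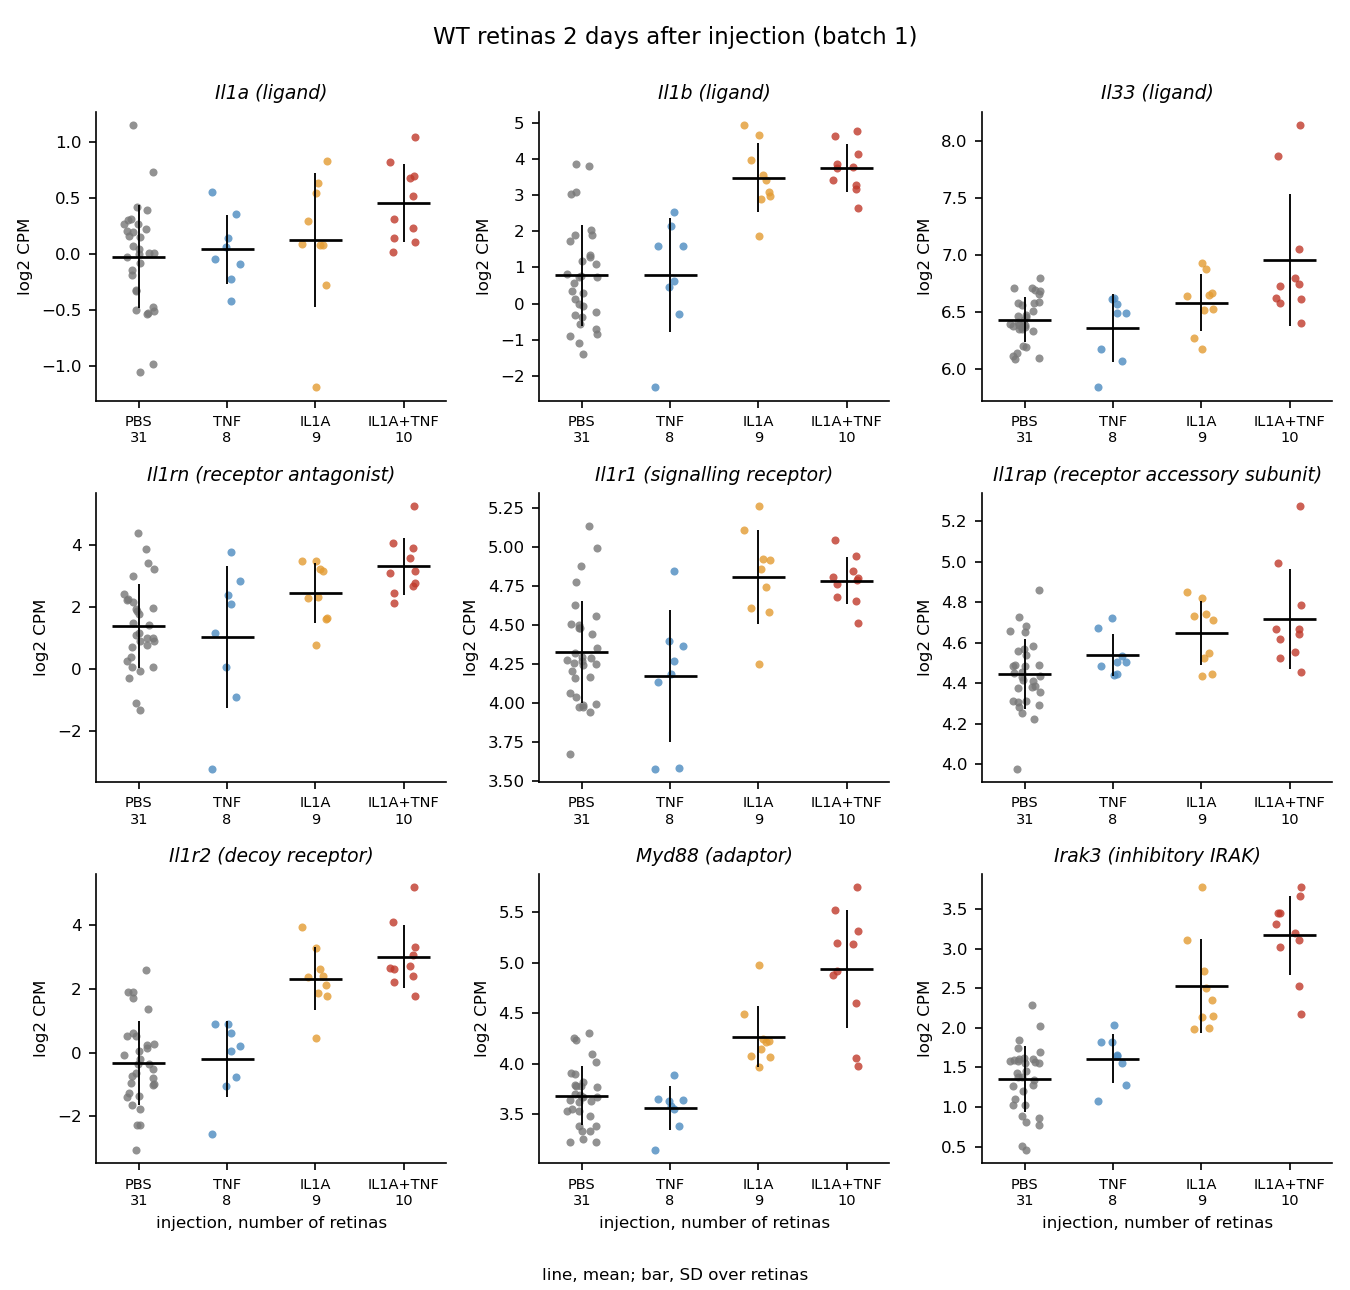
Level of each IL1 family member (log2 CPM, vertical axis) in single WT retinas of batch 1 on day 2 by injection; points are retinas, lines means and bars SD (n = 31, 8, 9 and 10). No TNF retina lies above every PBS retina for any member, and single ones lie below all of them for some, whereas Il1b, Il1r2, Myd88 and Irak3 shift upward after IL1A and after IL1A+TNF.

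Il1b, the secreted agonist made mainly by myeloid cells, showed a large change. Its level was 0.365 CPM in the lowest, 1.64 in the median and 14.6 in the highest PBS retina, and 0.185, 2.25 and 5.82 CPM after TNF. After IL1A the lowest, median and highest were 3.68, 10.7 and 30.8 CPM, and after IL1A+TNF 6.22, 13.7 and 27.7 CPM. All groups overlapped, because a few PBS retinas were high. Il1b rose after IL1A (log2 fold change 2.73, SE 0.33, FDR 2.352e-09) and after IL1A+TNF (2.82, SE 0.32, FDR 5.631e-11). After TNF the log2 fold change was 0.12, with a 95% interval of -0.92 to 1.16 that leaves room for changes in both directions. Adding TNF to IL1A gave a log2 difference of 0.09 (interval -0.54 to 0.72, FDR 0.901).

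The decoy receptor Il1r2 moved in much the same way as Il1b. It was 0.108 CPM in the lowest, 0.760 in the median and 5.94 in the highest PBS retina, and 1.35, 5.12 and 15.4 CPM after IL1A. After IL1A+TNF it ran from 3.40 through 6.40 to 36.0 CPM, and 7 of 10 retinas were above every PBS retina. Its log2 fold change was 2.67 (SE 0.35, FDR 1.998e-08) after IL1A and 3.17 (SE 0.33, FDR 3.491e-12) after IL1A+TNF, the latter being the greatest among the 9 members in that comparison. After TNF it was 0.19 (interval -0.90 to 1.27).

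The antagonist Il1rn was more variable. PBS retinas ran from 0.390 through 2.21 to 21.1 CPM, IL1A retinas from 1.70 through 4.96 to 11.3 CPM, and IL1A+TNF retinas from 4.33 through 8.70 to 38.3 CPM. Only 1 IL1A+TNF retina exceeded every PBS retina. Il1rn rose after IL1A+TNF (log2 fold change 1.78, SE 0.37, FDR 4.091e-05), while after IL1A alone it did not pass the threshold (1.04, SE 0.43, FDR 0.07178), except without IL1A replicate 6 or 7 (FDR 0.04138 and 0.03235). The direct difference between IL1A+TNF and IL1A was not called either (0.74, interval -0.15 to 1.63, FDR 0.3269), so the 2 injections are not shown to differ for Il1rn.

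The other agonists behaved differently from Il1b. Il1a stayed low in every group, at 1.02 ± 0.340 CPM after PBS (SD, n = 31), 1.15 ± 0.400 after IL1A (n = 9) and 1.39 ± 0.345 after IL1A+TNF (n = 10), and no IL1A+TNF retina was above every PBS retina. It rose after IL1A+TNF by a small amount (log2 fold change 0.40, SE 0.15, FDR 0.02151), a call that was lost with the mouse as a fixed block (0.41, FDR 0.1285) and without IL1A+TNF replicate 10 (FDR 0.06333). Il33 was 68.0 CPM in the lowest, 85.2 in the median and 111 in the highest PBS retina, and 84.6, 107 and 283 CPM after IL1A+TNF. It rose after IL1A+TNF (log2 fold change 0.44, SE 0.11, FDR 0.0004313) and had a log2 fold change of 0.11 after IL1A (interval -0.11 to 0.33, FDR 0.5558). The 2 highest Il33 values, 234 and 283 CPM, came from IL1A+TNF replicates 1 and 2, which also had the highest Il1r2 (16.95 and 36.0 CPM) and Il1rap (31.9 and 38.7 CPM). Summed neutrophil markers in these 2 retinas were 589 and 798 CPM, where the rest of the group ran from 121 to 320 CPM. Their summed Müller glia markers were 1144 and 1011 CPM, against 1347 to 2009 CPM in the rest. The part of these cell types was not tested.

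Both signalling receptor chains changed by small folds. Il1r1 was 20.6 ± 4.99 CPM after PBS (SD, n = 31), 18.7 ± 5.39 after TNF (n = 8), 28.5 ± 5.81 after IL1A (n = 9) and 27.7 ± 2.86 after IL1A+TNF (n = 10). It rose after IL1A (log2 fold change 0.43, SE 0.10, FDR 0.001386) and after IL1A+TNF (0.39, SE 0.10, FDR 0.0008277), with no IL1A+TNF retina above every PBS retina. The accessory chain Il1rap was 21.9 ± 2.62 CPM after PBS and 26.7 ± 5.04 CPM after IL1A+TNF, with a log2 fold change of 0.19 (SE 0.06, FDR 0.005221). After IL1A alone that of Il1rap was 0.16 and just missed the threshold (SE 0.06, FDR 0.05776), which it passed without IL1A replicate 6 or 7 (FDR 0.03228 and 0.04652). After IL1A+TNF the receptor chains therefore moved less in fold than the decoy Il1r2, whose log2 fold change was 3.17. In CPM the contrast was smaller. The mean of Il1r1 went from 20.6 to 27.7 CPM, and that of Il1r2 from 1.21 to 10.35 CPM with a median of 6.40 CPM.

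Below the receptor, Myd88 and Irak3 were the 2 members called between IL1A+TNF and IL1A alone by limma. Myd88 was 13.1 ± 2.80 CPM after PBS, 11.9 ± 1.73 after TNF, 19.7 ± 4.87 after IL1A and 32.9 ± 12.1 after IL1A+TNF, and 8 of 10 IL1A+TNF retinas were above every PBS retina. It rose after IL1A (log2 fold change 0.54, SE 0.13, FDR 0.001253) and after IL1A+TNF (1.15, SE 0.12, FDR 1.1e-12). Irak3 was 2.65 ± 0.757, 3.10 ± 0.640, 6.26 ± 3.15 and 9.43 ± 2.86 CPM in the same order, and 9 of 10 IL1A+TNF retinas were above every PBS retina. Irak3 rose after IL1A (1.14, SE 0.15, FDR 2.328e-08) and after IL1A+TNF (1.70, SE 0.13, FDR 4.115e-16). When IL1A+TNF retinas were set directly against IL1A retinas, where 10.1% of genes were called, Myd88 was higher by a log2 difference of 0.61 (SE 0.15, FDR 0.004026) and Irak3 by 0.56 (SE 0.16, FDR 0.01958). The other 7 members were not called there by limma, Il33 being nearest (0.33, SE 0.14, FDR 0.1097). Il33 was called by edgeR (0.43, FDR 0.04233) and DESeq2 (0.44, FDR 0.03298). The IL1A+TNF and IL1A groups overlapped for these genes. Of 10 IL1A+TNF retinas, 5 for Myd88 and 1 for Irak3 were above every IL1A retina. For Il1rn and Il33, not called by limma, 4 and 3 were.

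**Figure D2:**
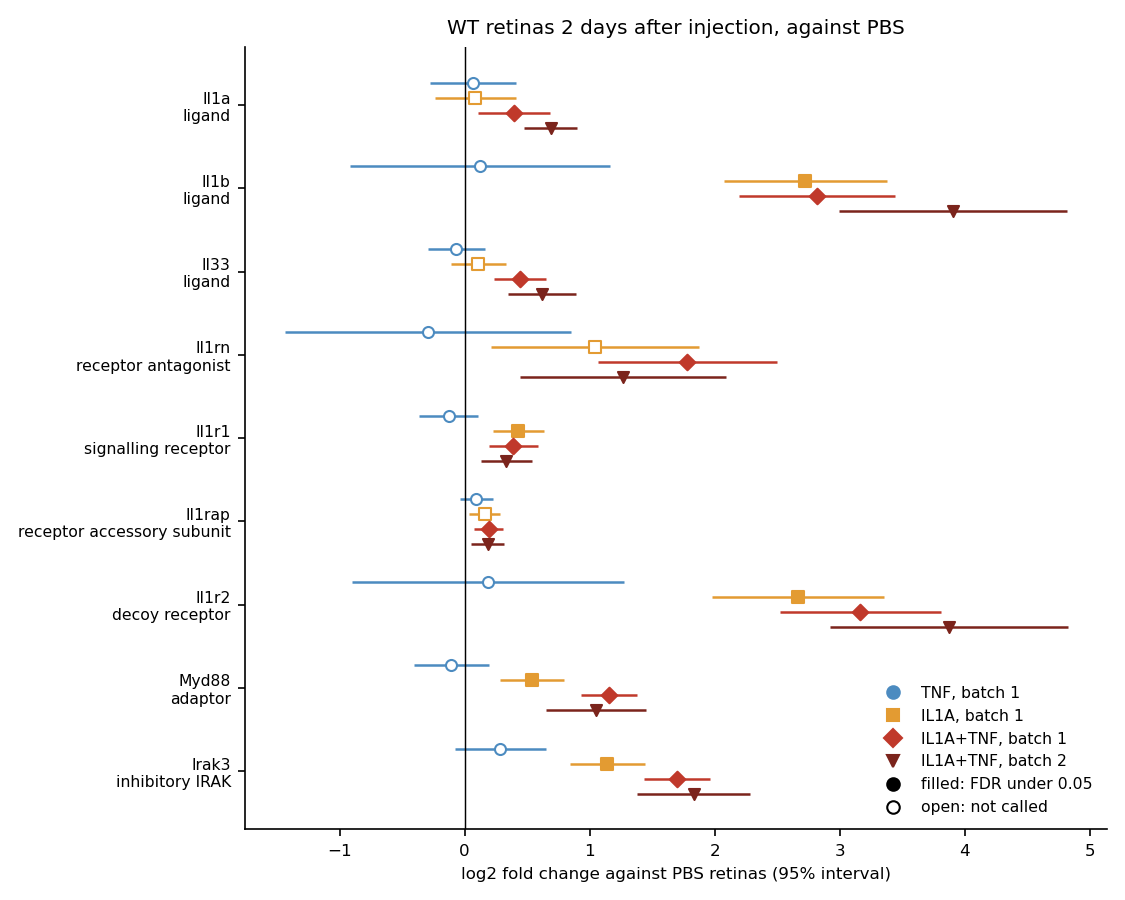
Log2 fold change of each member against PBS in WT retinas on day 2, with its 95% interval. Shown are TNF, IL1A and IL1A+TNF of batch 1, and IL1A+TNF of batch 2. Filled points have an FDR under 0.05. No TNF point is filled, while 5 IL1A points and all 9 IL1A+TNF points of each batch are.

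The single cytokines were also compared directly, where 9.08% of genes were called. The same 5 members that rose after IL1A were higher after IL1A than after TNF: Il1b (log2 difference 2.60, SE 0.55, FDR 0.001327), Il1r2 (2.48, SE 0.57, FDR 0.003346), Irak3 (0.86, SE 0.21, FDR 0.005805), Myd88 (0.65, SE 0.18, FDR 0.01586) and Il1r1 (0.56, SE 0.14, FDR 0.00753). The other 4 were not called, with a log2 difference of 1.34 for Il1rn (FDR 0.2013) and under 0.2 for Il1a, Il33 and Il1rap. One TNF retina, replicate 6, had the lowest Il1b (0.185 CPM), Il1r2 (0.154 CPM) and Il1rn (0.0923 CPM) of its group and summed monocyte markers of 2.25 CPM, where the group's median was 179.5 CPM. Without any 1 TNF retina the count of members called after TNF stayed at 0.

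Comparing both eyes of a mouse gave a second view of these changes. Of 8 mice with an IL1A+TNF and a PBS retina in batch 1, the IL1A+TNF eye was higher in 8 for Il1rn, Il1r1, Il1rap, Myd88 and Irak3, in 7 for Il1b, Il1r2 and Il33, and in 5 for Il1a. Of 7 mice with an IL1A eye, it was higher in 7 for Il1rap and in 6 for Il1b, Il1r2 and Irak3, but in 4 for Il1r1 and Myd88. When the mouse entered the fit as a fixed block, 3 members were called after IL1A in place of 5, with FDR 0.06137 for Il1r1 and 0.2278 for Myd88. Among 8 mice with a TNF eye, that eye was higher in 7 for Il1b and Irak3, with a median log2 difference of 1.08 for Il1b and 0.78 for Irak3, although neither gene was called in the fit, and within-mouse differences in Il1b ran from -4.04 to 3.26.

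Markers of other cell types moved with these results. The summed level of 9 neutrophil markers had a median of 15.3 CPM in PBS retinas (2.80 to 130.2), 20.7 after TNF (3.08 to 48.2), 158 after IL1A (63.4 to 384) and 192 after IL1A+TNF (121 to 798), and no marker was at 0 throughout any of these groups. Of the neutrophil markers 8 were tested, and 6 rose both after IL1A and after IL1A+TNF, where 21.4% and 50.4% of all genes were called. Summed monocyte and macrophage markers had medians of 37.8, 179.5, 202 and 377 CPM in the same order, and microglial markers 80.7, 117, 139.9 and 141 CPM. All 4 endothelial markers rose after IL1A and after IL1A+TNF, while of 4 Müller glia markers 2 fell after each and 1 rose after IL1A+TNF. All 4 rod, all 3 cone and 3 of 4 RGC markers fell after IL1A and after IL1A+TNF, and the median sum of the rod markers was 37520 CPM after PBS and 19540 CPM after IL1A+TNF, that of the cone markers 667 and 179 CPM. The part of these cell types in the members' changes was not tested.

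Across the 58 WT retinas of batch 1 on day 2, deviations from the group mean were used to find which genes varied most like each member among 15137 genes. The retinas share their libraries and depth, so the Pearson correlations are descriptions. Il1b varied most like Srgn (r = 0.919), which encodes the granule proteoglycan serglycin, S100a8 (0.881), a neutrophil calprotectin subunit, and Csf2rb (0.876), a myeloid cytokine receptor chain. Il1r2 likewise varied most like Srgn (0.932), Clec4d (0.907) and Syk (0.894), and Il1b and Il1r2 with each other at 0.881. Il1rn varied most like Birc3 (0.873), Tmem173 (0.868) and Gda (0.865). Among the other members, Myd88 varied most like Ebp (0.916), Irf8 (0.900) and Irf1 (0.887), both of the latter being interferon regulatory factors. Il1r1 varied most like Man1a (0.857), Tnfrsf1a (0.857), the main TNF receptor, and Rhoj (0.845). The nearest to Irak3 were Sbno2 (0.842), Tbc1d14 (0.834) and Togaram2 (0.816), and the nearest to Il33 were Ednrb (0.766), Adamts9 (0.764) and Nkain1 (0.761). Il1a (Rbm45, 0.603) and Il1rap (Ssh2, 0.632) had no gene as close, and Il1b and Il1rap were nearly unrelated (0.038).

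**Figure D3:**
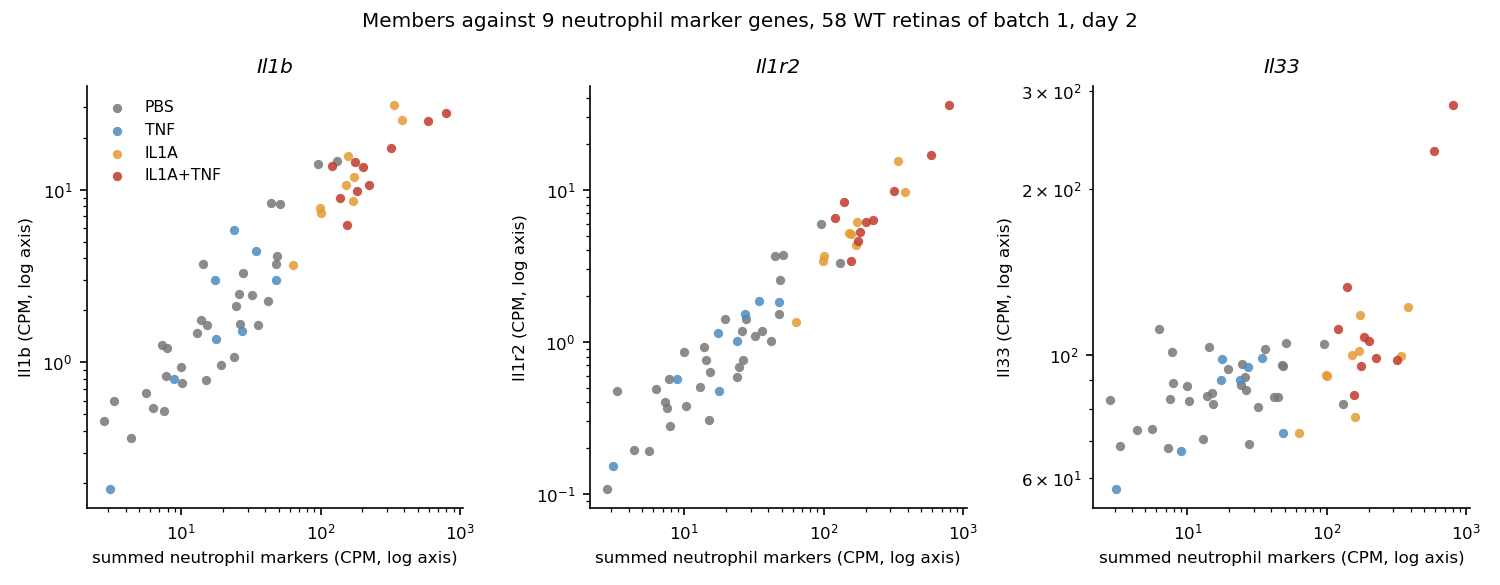
Level of Il1b, Il1r2 and Il33 (CPM, log axis) against the summed level of 9 neutrophil markers (CPM, log axis) in the 58 WT retinas of batch 1 on day 2, by injection. Il1b and Il1r2 climb along with the markers from PBS to IL1A+TNF retinas, and Il33 stays between 57.2 and 122 CPM except in a few IL1A+TNF retinas.

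Other genes of the pathway were followed by lists of named genes. Of 14 other IL1 family ligands and receptors 10 were tested. After IL1A, where 21.4% of all genes were called, 6 rose (median log2 fold change of those tested 0.79). The greatest were Il36g (2.95, SE 0.40, FDR 3.188e-08), an epithelial agonist, and the IL18 receptor chains Il18rap (2.57, SE 0.28, FDR 1.238e-10) and Il18r1 (2.24, SE 0.36, FDR 2.336e-06). After IL1A+TNF, where 50.4% of all genes were called, 6 rose and 2 fell (median 1.01). Again Il36g (3.13, SE 0.38, FDR 3.469e-10), Il18rap (2.74) and Il18r1 (2.08) led. Il1rl1, the IL33 receptor, rose after IL1A (0.99, SE 0.24, FDR 0.001559) and after IL1A+TNF (1.53, SE 0.22, FDR 2.488e-08); it is given, outside the rule for named genes, because it receives Il33.

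Of 20 genes of receptor-proximal signalling, 7 rose and 1 fell after IL1A, where 21.4% of all genes were called, and 9 rose and 4 fell after IL1A+TNF, where 50.4% were, with medians of 0.06 and 0.05. The kinases Irak4 (0.84, SE 0.09, FDR 1.233e-10) and Irak2 (0.35, SE 0.05, FDR 3.922e-08) and the inhibitor Nfkbia (0.25, SE 0.09, FDR 0.02843) changed most after IL1A. After IL1A+TNF the greatest were Irak4 (1.06), Irak2 (0.48) and the NF-kB subunit Rela (0.40). Most of this tier thus moved little beside Myd88 and Irak3.

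All 7 genes of cytokine maturation and release rose after IL1A (median 1.12) and after IL1A+TNF (1.35), where 21.4% and 50.4% of all genes were called. The inflammasome sensor Nlrp3 (2.07, SE 0.20, FDR 3.501e-12 after IL1A and 2.16, SE 0.19, FDR 1.882e-14 after IL1A+TNF) led in both, followed by Casp4 (1.51 and 1.74) and Casp1 (1.32 and 1.53), which cleaves pro-IL1B. Casp1 was also the 1 gene of these 4 lists called after TNF alone (0.82, SE 0.20, FDR 0.02228), where 0.655% of all genes were called.

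Of 13 genes that IL1 is known to induce, 12 were tested on day 2. After IL1A 10 rose (median 1.08) and after IL1A+TNF 11 (median 1.03), where 21.4% and 50.4% of all genes were called. Lcn2, an iron-sequestering acute phase protein, had 2.44 (SE 0.35, FDR 1.309e-07) after IL1A and 1.99 after IL1A+TNF, Saa3 1.90 and 2.04, and the neutrophil chemokine Cxcl1 1.89 after IL1A. Socs3, a feedback inhibitor of cytokine receptors, had 1.77 after IL1A+TNF (SE 0.21, FDR 2.136e-10) and was the 1 gene of the list called higher after IL1A+TNF than after IL1A (0.88). In that direct comparison 10.1% of all genes were called. There 1 receptor-proximal gene was higher (Rela, 0.19) and 2 were lower (Peli3, -0.24, and Peli2, -0.12), Capn2 was higher (0.25) among the maturation genes, and none of the other family ligands and receptors was called.

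Next, IL1A+TNF was tested again in the WT mice of batch 2, which share no retina with batch 1. All 9 members rose, against 37.7% of genes called, with a median log2 fold change of 1.05. PBS retinas had Il1b levels of 1.74, 0.675, 0.816, 2.87 and 0.950 CPM, whereas IL1A+TNF retinas ran from 10.3 through 23.4 to 37.6 CPM. Il1r2 was 1.01, 0.320, 0.257, 1.06 and 0.515 CPM after PBS and 5.63, 10.2 and 21.1 CPM in the lowest, median and highest IL1A+TNF retina. These groups did not overlap for Il1a, Il1b, Il33, Il1rap, Il1r2, Myd88 or Irak3, and overlapped for Il1rn and Il1r1. The share of all genes without overlap was not counted, so this is no result about the members as a set. The log2 fold changes were 3.91 (SE 0.47, FDR 0.0001135) for Il1b, 3.88 (SE 0.49, FDR 0.0001556) for Il1r2, 1.83 (SE 0.23, FDR 0.0001653) for Irak3 and 1.05 (SE 0.20, FDR 0.002523) for Myd88. Il1a had 0.69 (SE 0.11, FDR 0.0006757), Il33 0.62 (SE 0.14, FDR 0.005698) and Il1rn 1.27 (SE 0.42, FDR 0.03392). The calls for Il1r1 (0.33, FDR 0.02664) and Il1rap (0.19, FDR 0.04783) were near the threshold, and Il1rap and Il1rn were lost with the mouse as a fixed block (FDR 0.07624 and 0.1045). Il1rn was also lost by edgeR (FDR 0.06354) and DESeq2 (FDR 0.06075), and Il1rap with no low-count filter (FDR 0.08307), with RLE factors (FDR 0.05158) and without any 1 PBS retina. Il1r1 was lost without PBS replicate 3, 4 or 5 (FDR 0.06886, 0.07023 and 0.05357), and Il1rn without replicate 1, 2 or 3 (FDR 0.07895, 0.07903 and 0.07714). Leaving out 1 PBS retina at a time left 6 or 7 members called. The summed neutrophil markers had medians of 8.56 CPM after PBS and 313 CPM after IL1A+TNF in these mice.

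The next question was whether loss of Sarm1, a NADase that drives axon degeneration, altered these responses. Within Sarm1-/- retinas 8 members rose after IL1A+TNF, against 43.5% of genes called, with a median log2 fold change over the 9 of 0.91. Il1r2 had 3.42 (SE 0.59, FDR 4.085e-06), Il1b 2.79 (SE 0.53, FDR 1.522e-05), Irak3 1.60 (SE 0.25, FDR 6.97e-07) and Il1rn 1.28 (SE 0.50, FDR 0.03156), the last lost without mouse replicate 4, 5 or 6 (FDR 0.2432, 0.1273 and 0.06838), by edgeR (FDR 0.07248) and DESeq2 (FDR 0.07072), with no low-count filter (FDR 0.0608) and with no sex term (FDR 0.05923). Myd88 had 0.91 (SE 0.21, FDR 0.000286), Il1a 0.88 (SE 0.24, FDR 0.001975), Il33 0.87 (SE 0.21, FDR 0.0003607) and Il1rap 0.54 (SE 0.10, FDR 2e-05). Il1r1 was not called, with a log2 fold change of -0.29 (interval -0.58 to 0.003, FDR 0.1101), and it fell only when mouse replicate 3 was left out (-0.43, FDR 0.02351). Without the 3 retinas of low RGC markers, 3 members remained called: Il1b (2.35, FDR 0.01007), Il1r2 (2.37, FDR 0.007846) and Irak3 (1.04, FDR 0.01513). Those lost were Il1a (0.24, FDR 0.7754), Il33 (0.08, FDR 0.9215), Il1rn (0.39, FDR 0.8554), Il1rap (0.21, FDR 0.3224) and Myd88 (0.26, FDR 0.697), and the genes called over the whole table fell from 8768 to 599. The 3 treated retinas that then remained were all male and were still set against all 6 Sarm1-/- PBS retinas of both sexes. The PBS eyes of replicates 1 and 2 had summed neutrophil markers of 105.7 and 102.2 CPM, the highest of their group. For the lost calls, fewer treated retinas, these PBS eyes and the retinas left out cannot be told apart.

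**Figure D4:**
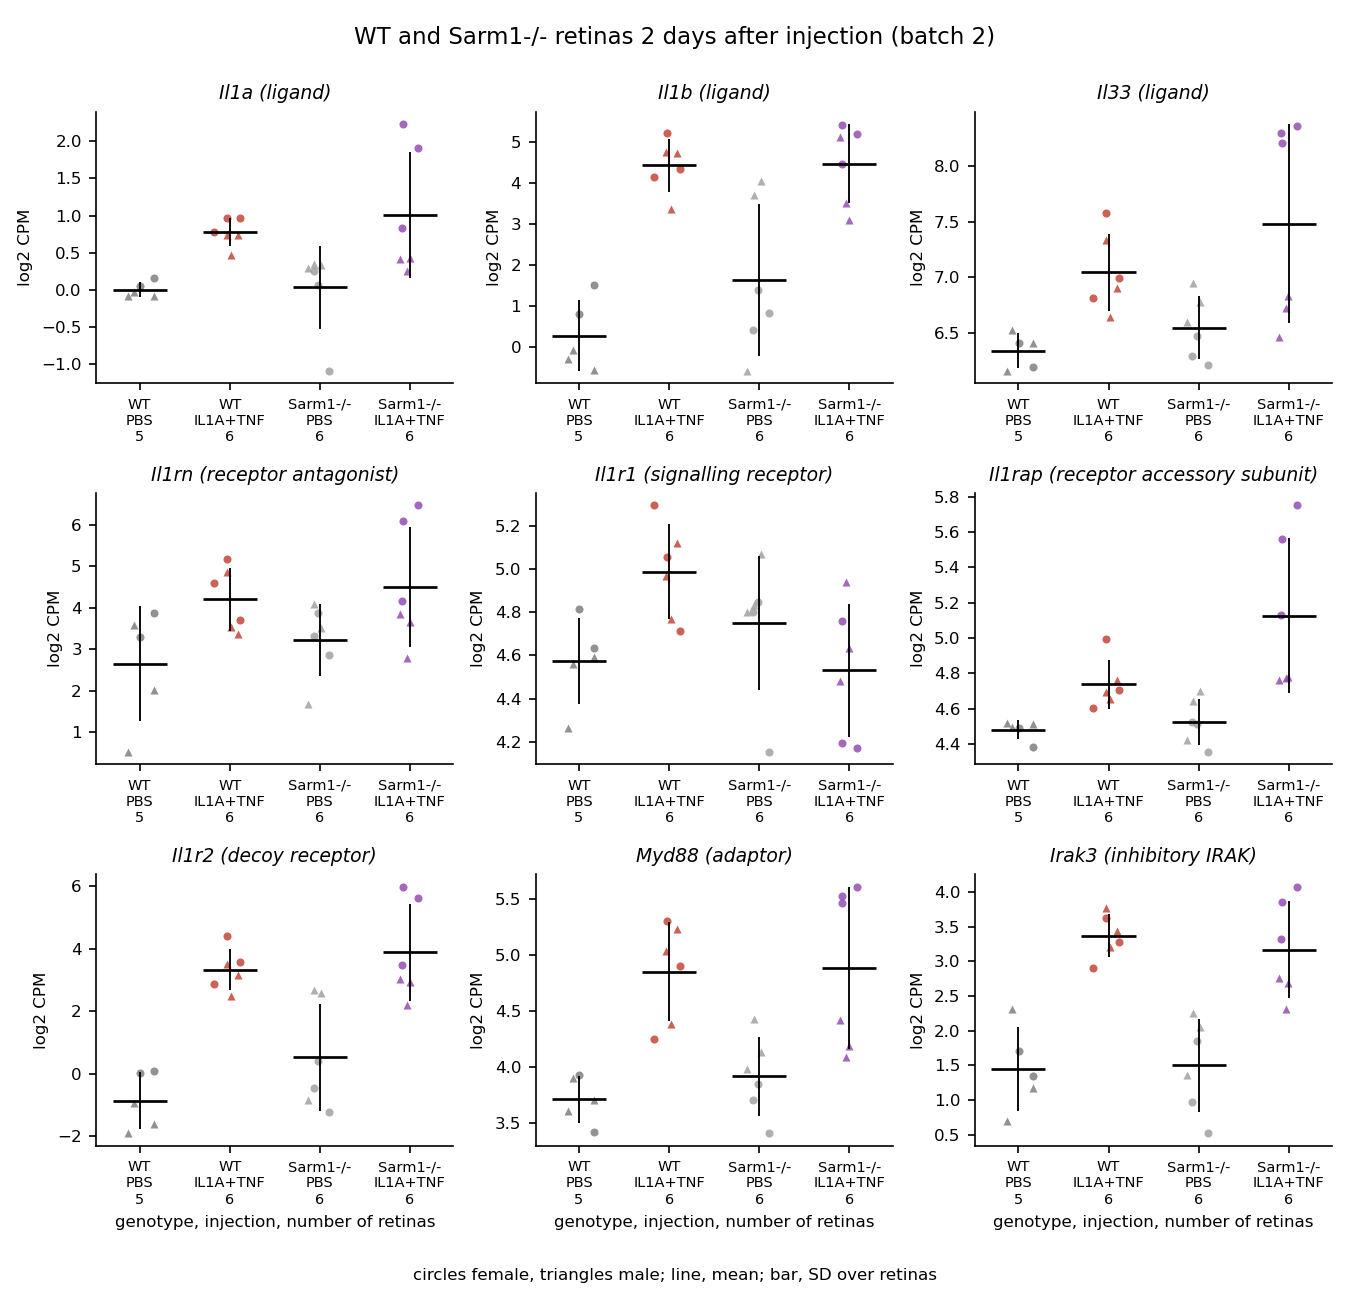
Level of each member (log2 CPM) in single retinas of batch 2 on day 2 by genotype and injection; circles are female and triangles male, lines means and bars SD (n = 5, 6, 6 and 6). Within Sarm1-/- IL1A+TNF the 3 female retinas sit above the 3 male ones for 7 members, all but Il1b and Il1r1. The share of all genes that do so was not counted. Female retinas also sit above male ones for Il1a, Il1b, Il1r1 and Il1r2 after PBS in WT (2 females and 3 males) and for Il1a after IL1A+TNF in WT.

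The retinas that stood apart carried the high values, and their summed neutrophil markers were 354, 697 and 648 CPM (replicates 3, 4 and 5) against 102, 236 and 138 CPM in replicates 1, 2 and 6, whose part in these values was not tested. In Sarm1-/- IL1A+TNF replicates 1, 2 and 6 Il33 was 106, 88.3 and 114 CPM, and in replicates 3, 4 and 5 it was 314, 329 and 296 CPM. Il1r2 was 4.59, 8.26 and 7.70 CPM against 11.2, 49.3 and 63.6 CPM. Myd88 was 17.04, 21.4 and 18.2 CPM against 44.3, 49.0 and 46.3 CPM. Thus these groups of 3 did not overlap for any of the 3 genes, nor for Il1a, Il1rap, Il1rn and Irak3. The split was made after the data were seen. The share of all genes without overlap between these groups was not counted, so the lack of overlap is not shown to be particular to the members. Il1b was less divided, at 11.5, 34.7 and 8.63 CPM against 22.3, 37.0 and 43.0 CPM. Il1r1 was the exception in level, at 30.8, 22.4 and 24.8 CPM against 27.1, 18 and 18.3 CPM. The effect of IL1A+TNF differed between the sexes in Sarm1-/- mice for 7 members, all with the greater effect in females, against 34.1% of genes called. Those were Il1r2 (log2 difference 4.21, FDR 0.002943), Il1b (2.71, FDR 0.03528), Il33 (2.01, FDR 2.927e-07), Irak3 (1.88, FDR 0.0003659), Myd88 (1.77, FDR 2.451e-05), Il1a (1.76, FDR 0.0006956) and Il1rap (0.78, FDR 0.0001933). These differences also take in the PBS eyes. The male Sarm1-/- PBS retinas of replicates 1 and 2 had summed neutrophil markers of 105.7 and 102.2 CPM. The rest of that PBS group ran from 5.17 to 16.9 CPM, and the part of these PBS eyes in the differences was not tested. Il1b lost its call without mouse replicate 1, 2, 4 or 5 (FDR 0.3582, 0.06061, 0.145 and 0.1015) and by edgeR (FDR 0.05326). In WT mice the same difference was called for no member by limma or edgeR, with 0 at an unadjusted p under 0.05, and for 0% of genes (469 of 20796 at an unadjusted p under 0.05). This sex comparison was chosen after the values had been seen.

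Between the genotypes no member differed in PBS retinas by limma, edgeR or DESeq2, with 0 at an unadjusted p under 0.05, and 0.0397% of genes were called. The widest interval was that of Il1r2 (log2 difference 0.64, -0.62 to 1.90), and the PBS retinas of Sarm1-/- replicates 1 and 2 had Il1b at 16.7 and 13.01 CPM where the other 4 ran from 0.665 to 2.62 CPM. Replicates 1 and 2 were both male and the highest of these PBS retinas in summed neutrophil markers. After IL1A+TNF, with the 16 WT retinas of both batches, 2 members differed, against 14.8% of genes called (2988, but 271 and 383 without Sarm1-/- mouse replicate 4 or 5). Il1rap was higher in Sarm1-/- (log2 difference 0.40, SE 0.09, FDR 0.003188), at 36.3 ± 11.6 CPM (SD, n = 6) against 26.8 ± 2.68 CPM in WT retinas of batch 2 (n = 6). Il1r1 was lower (-0.46, SE 0.14, FDR 0.0163), at 23.6 ± 5.03 against 32.1 ± 4.88 CPM, and 4 of 6 Sarm1-/- retinas were below every WT retina of that batch. By edgeR Il1r1 was not called (FDR 0.0686). Among markers lower alongside it in this comparison were 4 of 6 of microglia (median log2 difference -0.44), 2 of 4 of endothelial cells (-0.49), both of pericytes (-0.55) and 4 of 4 of RGCs (-0.82), and their part in the Il1r1 difference was not tested. Il33 was just outside the threshold (0.51, SE 0.19, FDR 0.05514) and inside it by edgeR (FDR 0.03238) and DESeq2 (FDR 0.02472), and Myd88 (0.03, interval -0.33 to 0.39) and Il1b (0.20, interval -0.55 to 0.96) were not called. In batch 2 alone neither was called (Il1r1 -0.45, FDR 0.1523, and Il1rap 0.41, FDR 0.1311), nor without Sarm1-/- mouse replicate 4 (FDR 0.1285 and 0.1008) or 5 (FDR 0.102 and 0.05911). Without the 3 retinas of low RGC markers the differences were -0.31 for Il1r1 (FDR 0.301) and 0.08 for Il1rap (FDR 0.6859), with -0.28 for Il33 (FDR 0.4379), -0.60 for Myd88 (FDR 0.07751) and -0.23 for Il1b (FDR 0.8514).

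The interaction of genotype and treatment, which asks directly whether the response to IL1A+TNF differed, was called for Il1r1 alone among the members, against 8.75% of genes. The log2 effect on Il1r1 was 0.67 lower in Sarm1-/- than in WT mice (-0.67, SE 0.17, FDR 0.01283). In the fellow PBS eyes Il1r1 was 27.4 ± 5.20 CPM in Sarm1-/- and 24 ± 3.21 CPM in WT, and IL1A+TNF eyes of 5 of 6 Sarm1-/- mice were below their PBS eye while those of 4 of 5 WT mice were above it. Without the 3 retinas of low RGC markers the interaction was -0.52 (FDR 0.1581). It was also lost without Sarm1-/- mouse replicate 4 (-0.60, FDR 0.1862) or 5 (-0.60, FDR 0.1434), by edgeR (-0.64, FDR 0.06512) and in batch 2 alone (-0.66, FDR 0.814). For Il1rap it was 0.35 (SE 0.12, FDR 0.05302), and 0.02 without the 3 retinas (FDR 0.9389). The other 7 members had FDR between 0.332 and 0.949 and intervals as wide as -1.24 to 1.46 for Il1r2.

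Among the pathway lists, IL1A+TNF raised all 7 maturation genes in Sarm1-/- retinas as in WT retinas of batch 2, and 10 of 20 receptor-proximal genes rose and none fell, where 43.5% of all genes were called. Of the IL1-inducible genes 7 of 13 rose in Sarm1-/- and 11 of 13 in WT mice of batch 2. These counts come from separate fits, where 43.5% and 37.7% of all genes were called. The interaction was called for 0 of the 13, where 8.75% of all genes were called. Without the 3 retinas of low RGC markers 3 maturation genes, no receptor-proximal gene and no IL1-inducible gene were called in Sarm1-/- retinas by limma, with 1 and 3 genes of the latter lists at an unadjusted p under 0.05. Over the whole table far fewer genes were called in that fit as well, so these counts are no result about the lists. Between the genotypes after IL1A+TNF, 14.8% of all genes were called. There the chemokines Cxcl2 (log2 difference 2.50) and Cxcl1 (1.43) and the growth factor Csf3 (1.25) were higher in Sarm1-/- than in WT retinas. Il1rl1 (-1.08, SE 0.31, FDR 0.01101), Il1rapl1 (-0.84) and Il1rapl2 (-0.74) were lower, and so was the pore-forming Gsdmd (-0.53), whereas Tab3 (0.18), Peli3 (0.16) and Traf6 (0.13) were slightly higher. Of all 4 lists the interaction was called for Il1rapl1 (-0.97), Peli3 (0.23) and Tab3 (0.17), against 8.75% of all genes. They are given as single genes and not as a result about the lists. Of these genes Peli3 alone was still called without the 3 retinas, between the genotypes (0.28, FDR 0.01707) and for the interaction (0.34, FDR 0.02652). There the log2 differences between the genotypes were 1.23 for Cxcl2 (FDR 0.3086), 0.45 for Cxcl1 (FDR 0.721) and 0.83 for Csf3 (FDR 0.2385), and the kinases Irak1 (-0.36, FDR 0.01084), Irak2 (-0.40, FDR 0.009384) and Irak4 (-0.61, FDR 0.01707) and the protease Capn2 (-0.35, FDR 0.0351) were lower, none of which was called with all retinas.

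The later time points address whether TNF alone changed the family with delay. On day 14, 7 members had enough counts to be tested, and none was called by limma, edgeR or DESeq2. On day 35 the same was true of 6 members. On both days 0% of genes were called. An unadjusted p under 0.05 was seen for 838 genes on day 14, 0 of them members, and for 871 on day 35, 1 of them a member (Irak3). On day 14 Il1b was 0.208 ± 0.108 CPM after PBS (SD, n = 7) and 0.364 ± 0.110 after TNF (n = 6), with a log2 fold change of 0.72 (interval 0.04 to 1.41, FDR 0.8876). Irak3 on day 35 ran from 0.864 to 0.990 CPM after PBS and from 0.844 to 1.70 CPM after TNF, with 8 of 9 TNF retinas above every PBS retina (log2 fold change 0.44, SE 0.15, FDR 0.8893). Il1rn had at most 16 counts in any retina of these days and no counts in 5 of 9 TNF retinas of day 35, so that a change in it was not detectable at this depth.

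**Figure D5:**
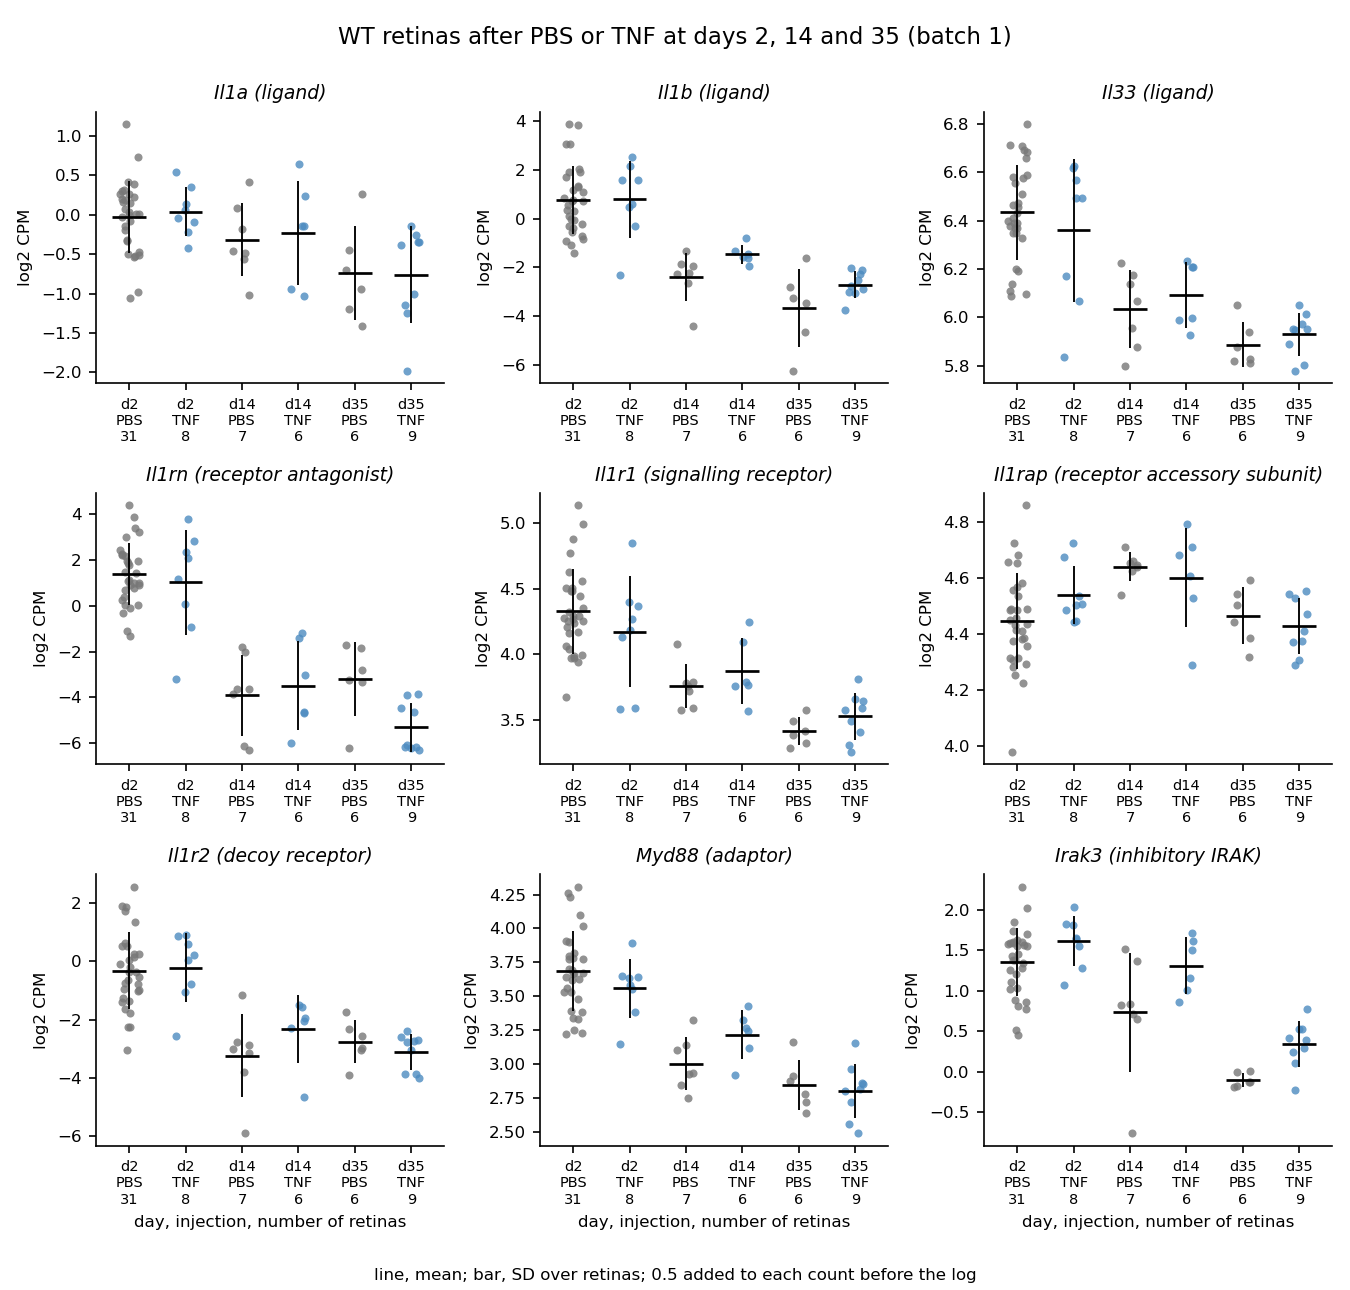
Level of each member (log2 CPM) in single WT retinas of batch 1 after PBS or TNF on days 2, 14 and 35; lines are means and bars SD. Il1b, Il1rn and Il1r2 are more than 1 log2 unit lower on days 14 and 35 than on day 2, and PBS and TNF overlap on each day.

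Levels in control retinas also differed by day. In PBS retinas 8 of 9 members differed across days 2, 14 and 35, against 36.2% of genes called. This fit had no mouse block, and 2 of the 7 day 14 retinas came from 1 mouse. Il1b was 2.86 ± 3.64 CPM on day 2 (n = 31), 0.208 ± 0.108 on day 14 (n = 7) and 0.107 ± 0.111 on day 35 (n = 6; FDR 0.0064), while the summed neutrophil markers had medians of 15.3, 1.90 and 1.62 CPM. Il1rn was 4.06 ± 4.52, 0.0983 ± 0.109 and 0.144 ± 0.112 CPM (FDR 0.003919), and Il1r2 1.21 ± 1.31, 0.136 ± 0.139 and 0.151 ± 0.0814 CPM (FDR 0.00608). Irak3 was 2.65 ± 0.757, 1.81 ± 0.735 and 0.920 ± 0.0545 CPM (FDR 3.194e-05). Myd88 was lower than on day 2 by a log2 difference of -0.65 on day 14 and -0.77 on day 35 (FDR 1.132e-06), Il1r1 by -0.54 and -0.85 (FDR 3.225e-06) and Il33 by -0.37 and -0.48 (FDR 1.217e-06). Il1rap went the other way, by 0.22 and 0.08 (FDR 0.01597), and Il1a was not called (-0.24 and -0.67, FDR 0.05567). PBS retinas of day 2 were thus higher for 7 members than those collected later, and the injection itself, the day and the mouse's fellow eye cannot be told apart, because no uninjected retina was analysed here.

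Some members share exonic bases with a gene on the opposite strand: Il1a with Gm14023 over 222 of 1974 bases, Il1rap with Gm20319 over 552 of 11360, Myd88 with Acaa1a over 290 of 2576, Irak3 with Tmbim4 over 192 of 3676, and Il1b with Il1bos over 25 of 1907. Whether reads were counted by strand is not given in the sources used here, so reads of the pairs may not be told apart in those stretches.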

How the data were processed

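Poly(A) RNA of single retinas was sequenced as read pairs. The authors aligned reads to mm10 with STAR 2.7.9a and deposited raw counts of read pairs per gene made with featureCounts of Subread 2.0.1. The annotation release and strand setting are not given in the sources used here. Gene symbols of 35533 of 37315 identifiers came from GENCODE annotation of GRCm38. Groups, day and sex came from the sample labels, although the protocol text names collection on day 2 alone.

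From these deposited counts, CPM was computed as count over library total. The main test followed the study's model: limma 3.58.1 voom in R 4.3.3 with TMM normalization (edgeR 4.0.16), filterByExpr (minimum count 10, minimum total 15), sex as covariate (also batch in the fit of both genotypes), mouse as a random block by duplicateCorrelation (none in the fit of PBS retinas across days), and Benjamini-Hochberg FDR over all genes tested, called at 0.05. Replicate eyes pair through the mouse label. The within-mouse correlation was 0.05 in batch 1 on day 2, 0.28 on day 14, 0.08 on day 35, 0.11 in WT mice of batch 2 and 0.005 in the fit of both genotypes. Intervals are the estimate plus or minus 1.96 SE. The pipeline was tested on simulated data. Each mouse is a separate animal, and counting error is small beside its spread except at the lowest counts.

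All 9 members were reported in every comparison. From each pathway list the 3 called genes with the greatest absolute log2 fold change were named, and for each member the 3 genes of highest r. Members and lists were chosen with earlier results of these data known. Alternatives were no filter, a mean of at least 1 CPM, RLE factors, no sex term, no or fixed mouse block, edgeR quasi-likelihood, DESeq2 1.42.0, batch 2 alone and leaving out 1 replicate at a time. Those left out were treated retinas of batch 1, PBS retinas of WT mice of batch 2 and Sarm1-/- mice. No PBS retina of batch 1 and no WT IL1A+TNF retina of batch 2 was left out. The comparisons of IL1A+TNF with IL1A and of IL1A with TNF were not repeated in this way. Leaving out the retinas of low RGC markers and the sex comparison were chosen after seeing the data.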

Additional observations from a re-analysis of the deposited data

Results flagged for a closer look

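Within groups of 4 to 10 retinas, a single retina lay far from its group in 8 of 99 tests by Dixon's criterion, where chance flags about 1 in 20. Among Sarm1-/- PBS retinas of day 2, replicate 3 was the lowest for Il1a (0.461 CPM, the other 5 running from 1.04 to 1.27) and for Il1r1 (17.8 CPM). Among WT PBS retinas of batch 2, replicate 4 was the lowest for Il1rap (20.9 CPM). On day 14 the retinas concerned were PBS replicate 1 for Il1r1, the highest of its group at 16.9 CPM, PBS replicate 3 for Il1b, the lowest at 0.0319 CPM, PBS replicate 4 for Irak3, the lowest at 0.577 CPM, and TNF replicate 2 for Il1r2, the lowest at 0.0264 CPM. On day 35 PBS replicate 3 had an Il1rn level of 0 CPM, in a group where Il1rn was at most 0.288 CPM.

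Effects that differed between groups were also singled out. The effect of IL1A+TNF on Il1r1 differed between Sarm1-/- and WT mice by -0.67 on the log2 scale (FDR 0.01283 by limma). Within Sarm1-/- mice the effect was greater in females than in males by 1.76 for Il1a, 2.71 for Il1b, 2.01 for Il33, 0.78 for Il1rap, 4.21 for Il1r2, 1.77 for Myd88 and 1.88 for Irak3. All 3 female IL1A+TNF retinas of that genotype were those of low RGC markers, so the 2 features cannot be told apart. The male PBS retinas of replicates 1 and 2 were the highest of their group in summed neutrophil markers, which also enters these differences.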

How the results depend on the processing

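Over the alternatives run, 1566 of the members' log2 fold changes kept their side of the threshold (83 of them, not called in either fit, with the other sign), 60 lost their call, 20 gained one and none that was called changed sign. After IL1A 5 members were called, and 3 with the mouse as a fixed replicate block, which uses the 23 mice of batch 1 with both eyes. After IL1A+TNF in Sarm1-/- mice 8 were called, but 4 without the 2 retinas of lowest RGC markers and 3 without all 3. Between the genotypes after IL1A+TNF 2 were called, against 0 in batch 2 alone, 0 without the 2 or the 3 retinas, and 0 to 3 with 1 mouse left out. For the genotype by treatment interaction 1 was called, against 2 with a mean of at least 1 CPM, 0 by edgeR, 0 in batch 2 alone, 0 without the 2 or the 3 retinas, and 0 to 2 with 1 mouse left out. With 1 mouse or retina left out (in WT mice of batch 2, 1 PBS retina), the range of members called was 5 to 7 after IL1A, 8 to 9 after IL1A+TNF, 6 to 7 in WT mice of batch 2, 7 to 9 in Sarm1-/- mice, 6 to 8 for the sex difference in Sarm1-/- mice and 0 for TNF on each day. No mouse block at all ended 1 call, that of Il1rap in WT mice of batch 2 (FDR 0.05476), and beside the calls given above the fixed block changed none. Il33 was called between IL1A+TNF and IL1A by edgeR (FDR 0.04233) and DESeq2 (FDR 0.03298). Over all genes, 128 were called after TNF on day 2, against 268 by DESeq2, 242 by edgeR 21 with the fixed block, 20 without TNF replicate 7 and 431 without replicate 6, and 4193 after IL1A against 2116 with the fixed block. Between the genotypes after IL1A+TNF 2988 were called, against 1195 by edgeR, 1450 by DESeq2, 129 in batch 2 alone, 271 or 383 without Sarm1-/- mouse 4 or 5, and 184 or 969 without the 2 or the 3 retinas, and the interaction counts were 1763, 181, 383 and 0, with 0 or 14 without mouse 4 or 5. The causes were not tested. Il1b, Il1rn and Il1r2 had at most 21 counts in any retina of days 14 and 35, so depth limits what can be said of them there.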
